A study of Mus musculus with 19 samples.

Results

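Cd4 encodes the CD4 coreceptor of T cells, and it was followed here as RNA and as surface protein in single cells of the mouse thymus. The RNA is the row named Cd4 (ENSMUSG00000023274), 1 gene of 28692 in the count matrices, and the protein is the row of the CD4 antibody, 1 antibody of a panel of 111. Both rows were taken by name. In GRCm38 the gene lies on chromosome 6 from 124864692 to 124888221 on the minus strand, and GENCODE vM21 gives it 5 transcripts of up to 10 exons. Lag3, which encodes a CD4-related inhibitory receptor that also binds MHC class II, starts 16139 bases away, and Ptms follows at 25459 bases.

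Thymocytes of 17 female mice aged 4 to 8 weeks were measured by CITE-seq, in which antibodies carrying DNA barcodes are read together with the RNA of each cell, on 19 lanes in 3 experiments. AND and OT-II mice carry a transgenic T cell receptor (TCR) restricted to MHC class II, MHCI-/- mice lack B2m, and these 3 genotypes make CD4 T cells (CD4-fated, 2 mice each). F5 and OT-I mice carry a TCR restricted to MHC class I, MHCII-/- mice lack H2-Ab1, and these make CD8 T cells (CD8-fated, 2 mice each). There were also 5 wild-type mice. According to the study's methods AND and F5 were bred onto Rag1-/-, and the F5 receptor is expressed from a CD2 cassette. Sorting for CD5+TCRB+ thymocytes was applied to MHCI-/- and MHCII-/- mice and to 3 wild-type mice, but not to the others, and OT-I, OT-II and the 2 unsorted wild-type mice formed the third experiment, done at another site. Site, sort and Rag1 deficiency therefore follow the 3 families of genotypes (F5 and AND, OT-I and OT-II, and the MHC-deficient pair) and cannot be told apart from it. Each family holds 1 genotype of each lineage, and the fits of RNA and protein compared lineages with family as a covariate, whereas the permutation tests of shares and of protein per RNA had no family term.

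CD4 binds MHC class II outside the peptide groove and brings the kinase Lck to the TCR, and CD8, made of chains encoded by Cd8a and Cd8b1, does the same for MHC class I. Double positive (DP) thymocytes carry both coreceptors. After positive selection, cells restricted to MHC class II keep CD4 and end CD8 expression, and cells restricted to MHC class I do the reverse, ending Cd4 transcription through a silencer in the first intron that is bound by Runx proteins. In CD4 T cells the factor ThPOK, encoded by Zbtb7b, opposes that silencing. Thymocytes of both fates are known to pass through a stage with high CD4 and low CD8.

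After filters and doublet removal, 69238 cells were kept. The lanes held 2550 to 9408 barcodes, 9893333 to 43303999 RNA molecules counted by unique molecular identifiers (UMIs) and 4484116 to 34762051 antibody UMIs, with a median of 1519 to 7259 RNA UMIs per cell that passed. The lane of AND 2 had the lowest antibody depth, with a median of 1106 antibody UMIs and 42.1% of its barcodes passing. No pair of lanes shared more than 15 cell barcodes, and in no pair did the shared ones exceed 0.432% of the smaller lane. In CPM (the UMIs of a gene scaled to the same total in every sample), B2m was at 46.6 and 48.5 in MHCI-/- and at 403 or more in each of the other mice. H2-Ab1, at 8.78 and 8.88 CPM in MHCII-/- and 4.67 to 17.5 CPM in sorted wild-type mice, was too low in sorted thymocytes to check that label.

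The 2 readouts of Cd4 differed widely in depth. Cd4 RNA gave 57204 of 375593570 RNA UMIs (0.0152%), and 45.3% of cells had at least 1 Cd4 UMI. The CD4 antibody gave 15983284 of 263709448 antibody UMIs (6.06%), which made it the 6th most abundant of the 111 antibodies, and 99.6% of cells had at least 1 of its UMIs. Single cells are therefore described by the protein, and RNA levels are sums over the cells of a mouse. RNA levels are given in CPM of all RNA UMIs, and protein levels as CD4 UMIs per 10000 antibody UMIs. RNA and protein levels are not on 1 scale and are compared only through their changes.

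Over all cells of a mouse, Cd4 RNA was highest in the unsorted wild-type mice, at 306 and 288 CPM, and lowest in the OT-I mice, at 50.5 and 56.9 CPM. CD4 protein gave another order, highest in AND 1 at 1081 per 10000, followed by the MHCI-/- mice at 853 and 949.7, and lowest again in OT-I, at 223 and 202. The MHCII-/- mice had 782 and 805 per 10000 and AND 2 had 743. The unsorted wild-type mice, first in RNA, had 503 and 509 per 10000, below the 787, 745 and 639.8 of the sorted wild-type mice. These sums mix stages in different shares, and the unsorted wild-type, OT-I and OT-II mice were also in another experiment at another site. The following values were taken within cell types and within stages, which does not remove a difference between experiments.

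Cells were clustered on RNA with Cd4, Cd8a and Cd8b1 left out, and clusters were named from markers. The levels by cell type are descriptions, since types were formed from RNA of the same cells. Wild-type means and SDs, here and below, pool sorted and unsorted mice, the latter from the third experiment. In wild-type mice Cd4 RNA was highest in quiescent DP-like cells, the largest class with 15003 cells over all mice, at 555.6 ± 74.7 CPM (SD, n = 5 mice), and in each of the 4 mice with both classes it was above the next class. Myeloid-like cells followed at 304.8 ± 130.3 CPM (SD, n = 4), but in only 2 of 4 mice above CD4 SP-like cells (single positive, SP), which held 263 ± 26.7 CPM (n = 5). Interferon-like cells, led by interferon-induced genes, had 224.6 ± 35.6 CPM and mature SP-like cells 213.4 ± 31.3 CPM. Cd4 RNA was lower, at 151.3 ± 59.8 CPM, in signaled DP-like cells, which lie between quiescent DP-like and SP-like cells. This class could not be separated from its neighbours in the order, cycling-like cells (170.4 ± 52.6 CPM), Treg-like cells (158.9 ± 44.2 CPM) and a cluster led by Cd226 and Plekho1 (147.5 ± 46.9 CPM), since neighbours kept their order in 2 to 4 of 5 mice. CD8 SP-like cells stood last at 12.4 ± 17.2 CPM, below NKT-like cells (40.7 ± 19.7 CPM) in 5 of 5 mice. WT_unsorted 5 had 42.7 CPM in CD8 SP-like cells and the other mice 1.46 to 7.78, and without it the mean was 4.81 CPM. CPM is a share of the RNA of a class. Over all mice the median cell had 2351 RNA UMIs in quiescent DP-like, 4389 in CD4 SP-like, 4633 in mature SP-like and 9135 in cycling-like cells. The order in CPM is therefore not an order of Cd4 molecules per cell, and shares at a fixed depth, used below, have the same limit.

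CD4 protein ranked the same classes differently. Mature SP-like cells had the highest level, 938.8 ± 281 per 10000 (SD, n = 5 mice), above the next class in 5 of 5 mice. Quiescent DP-like cells, first in RNA, had 747 ± 165 per 10000, close to CD4 SP-like cells at 722 ± 225, and were above them in 2 of 5 mice. Signaled DP-like cells were again lower, at 465.5 ± 67.0 per 10000. NKT-like cells held 286 ± 42.1 per 10000, and CD8 SP-like cells 39.8 ± 10.2. The CD8 SP-like level was close to that of B-like cells, which should lack CD4 and were at 47.5 and 50.8 per 10000 in the unsorted wild-type mice. DN-like cells of these mice, which precede coreceptor expression, were at 84.8 and 85.0 per 10000 and at 22.1 and 33.7 CPM of Cd4 RNA. Over the 15 classes compared, the levels of RNA and protein had Pearson's r = 0.811, given as a description over classes that share cells, libraries and depth.

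**Figure D1:**
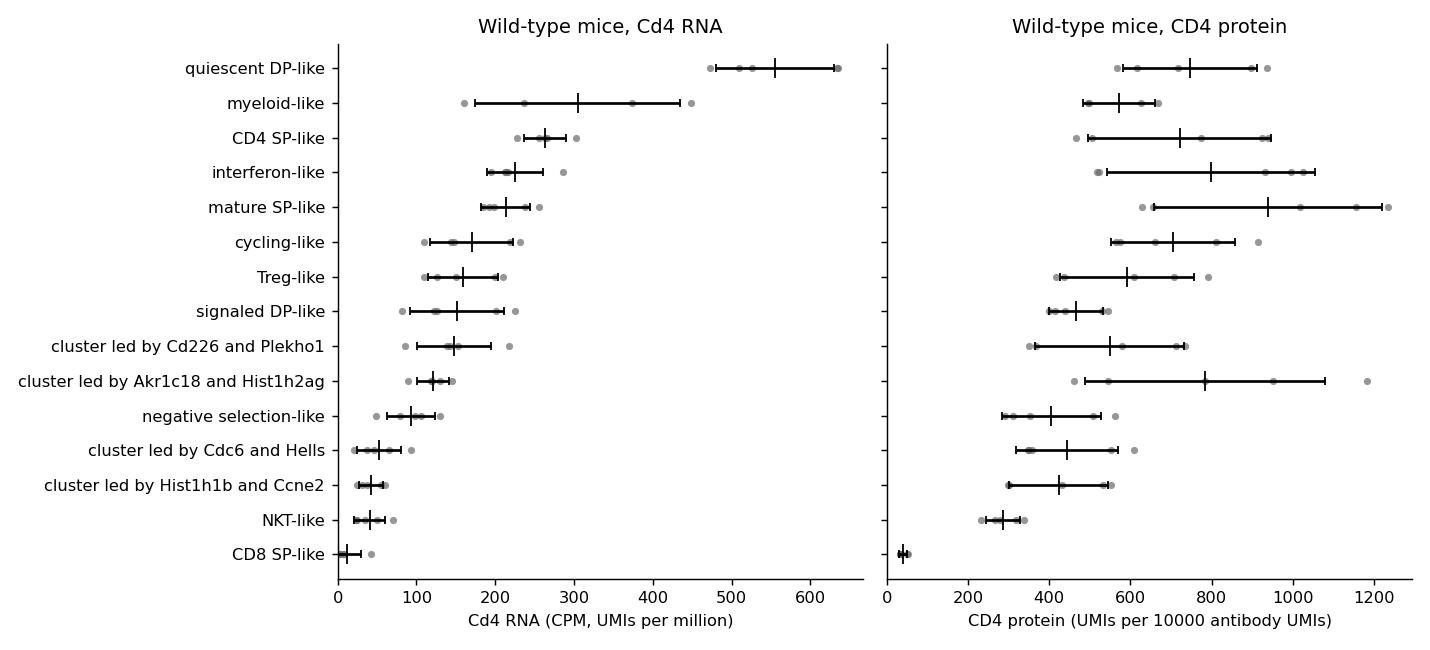
Cd4 RNA (CPM) and CD4 protein (CD4 UMIs per 10000 antibody UMIs) in the cell classes of the 5 wild-type mice. Points are mice, bars the mean and SD, and classes are ordered by the mean; quiescent DP-like cells are first in RNA at 555.6 CPM and mature SP-like cells first in protein at 938.8 per 10000, whereas CD8 SP-like cells are last in both.

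Deeper cells show a Cd4 UMI more often, so each cell was also thinned to 1500 RNA UMIs, and shallower cells were left out. That removed 3513 of 15003 quiescent DP-like cells, 3204 of them from WT_unsorted 5, and 653 signaled DP-like cells. Pooled over the cells of all mice, 55.7% of quiescent DP-like cells then had a Cd4 UMI (75.1% unthinned, median depth 2634 UMIs), against 29.97% of CD4 SP-like cells (61.1%, median 4422), 26.4% of mature SP-like cells (58.6%, median 4643.5) and 18.4% of signaled DP-like cells (32.05%, median 3227). Over the 5 wild-type mice the means in this order were 54.3% ± 4.04, 31.8% ± 1.85, 28.9% ± 3.99 and 17.8% ± 6.01 (SD, n = 5 each). The pooled share was 0.748% of CD8 SP-like cells (3.37%, median 7891.5). In B-like cells it was 3.0% (8.0%, median 3720), but from 3 of 100 cells, which is too few to set a background.

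To follow Cd4 through positive selection, 26337 cells from signaled DP-like to mature SP-like were ordered by diffusion pseudotime, a distance through the graph of similar cells computed here without Cd4, Cd8a, Cd8b1 and without the lists of Cd4 regulators and coreceptor partners used below. The order was divided into 10 bins of equal size. In CD4-fated mice 122 of 8779 cells, and in CD8-fated mice 447 of 8423, lay in late sub-clusters with the marker genes of the opposite lineage and were left out of the lineage comparisons by bin, but not of those by cell class or of the gate shares over the whole order. Most came from OT-I mice, with 10.5% and 16.2% of their cells on the CD4 side. The order leaves out most F5 cells, with 550 of 2439 cells of F5 1 and 54 of 4195 of F5 2 in it. A cluster led by Cdk19os and Amd1, closest to quiescent DP and so outside the order, held 1104 and 2037 of their cells. A mature SP-like cluster led by Amd1 and Cdk19os, left out because under 5% of its cells were wild-type, held 381 and 689, with Cd4 RNA at 19.3 and 10.7 CPM and CD4 protein at 351 and 178 per 10000. Of the bins of F5 2 only 1 and 2 reached the 10 cells required for a value, and F5 1 had no value in bin 5.

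Cd4 RNA of CD4-fated mice ended near where it began, with a dip between. It averaged 209.8 CPM in bin 1, 126.6 in bin 2, 125.1 in bin 3, 219.3 in bin 4 and 216.8 in bin 10, without a bin from 4 to 10 under 192.3 CPM. The fall from bin 1 was 0.82 ± 0.17 in bin 2 and 0.75 ± 0.18 in bin 3 on the log2 scale (± SE, adjusted p = 0.0007 and 0.0013, edgeR quasi-likelihood test with each mouse as a block), where 3.25% and 10.9% of 7875 genes were called. Bins 4 to 10 differed from bin 1 by 0.05 to 0.27 and did not pass the test, with 20.1%, 28.2%, 31.8%, 40%, 40.5%, 39.3% and 28% of genes called. Without OT-II 1, whose bin 1 level was the highest of these mice at 311.9 CPM, 7 bins passed in place of 2, bin 10 among them at 0.55 (adjusted p = 0.0140). The dip was also present in wild-type mice, which fell by 0.73 in bin 2 and 0.70 in bin 3 (5.96% and 17.6% of 8678 genes called). In wild-type mice bins 2, 3, 7, 8 and 10 passed, and only 1 bin did without WT_unsorted 4. CD8-fated mice fell by 0.72 in bin 3 (adjusted p = 0.0129, 6.03% of 9296 genes called), whereas their difference of -0.59 in bin 2 did not pass (adjusted p = 0.167).

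In CD8-fated mice the RNA was higher in bin 4 than in bin 3 in 4 of 5 mice, a step that was not tested, and was low from bin 6 on. Means were 269.6 CPM in bin 1, 131.6 in bin 2, 116.9 in bin 3, 195.5 in bin 4 and 138.1 in bin 5, and then 18.7, 7.4, 4.7, 3.6 and 3.1 CPM in bins 6 to 10. In MHCII-/- 1 Cd4 RNA went from 237.9 CPM in bin 4 to 89.1 in bin 5, 10.4 in bin 6 and 1.3 in bin 7. MHCII-/- 2 gave 240.2, 100.2, 11.4 and 5.5 CPM in the same bins. OT-I 1 gave 199.8, 158.5, 36.1 and 12.4 CPM, and OT-I 2 gave 299.6, 204.8, 35.5 and 17.6 CPM. The level was lower in bin 5 than in bin 4, and lower again in bin 6, in each of these 4 mice. F5 1 was at 202.5 CPM in bin 1, 106.7 in bin 2 and 32.3 in bin 3, and no Cd4 UMI was found in its bins 4 and 6 to 9, from 13 to 96 cells each, which allows up to 47.9 CPM in bin 4 and 5.84 CPM in bin 9. Such limits cover counting error only. Against bin 1 the change within CD8-fated mice was -0.80 in bin 5 (adjusted p = 0.0020), -3.40 in bin 6 and -5.84 in bin 10, with 15.2%, 24.3% and 43.4% of genes called.

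The lineages separated in RNA from bin 6. In bins 1 to 5 the values of the CD4-fated and CD8-fated mice overlapped, and the difference, CD4-fated minus CD8-fated, was -0.24, -0.10, -0.09, -0.07 and 0.64 on the log2 scale. In bin 5 it had an adjusted p of 0.460, with 1.6% of genes called in that bin, and it passed without OT-I 2 (0.87, adjusted p = 0.0328). In bin 6 the lowest CD4-fated mouse was at 157.8 CPM and the highest CD8-fated mouse at 36.1 CPM, a difference of 3.53 ± 0.33 (± SE, adjusted p = 1.8e-06), where 3.32% of 7713 genes were called and 1.88% were higher in the CD4-fated group. The difference was 4.79 ± 0.33 in bin 7, 5.21 ± 0.32 in bin 8 and 5.46 ± 0.29 in bin 9, where 4.13%, 5.65% and 8.93% of genes were called (2.12%, 2.52% and 4.31% higher in CD4-fated mice). In bin 10 the CD4-fated mice lay between 163 and 283.6 CPM and the CD8-fated mice between 1.4 and 6.06 CPM, 5.99 ± 0.28 apart (adjusted p = 3.3e-11, 6.22% of genes called, 2.46% higher). The groups did not overlap in bins 6 to 10, and the ratio of their means was 11.8, 27.7, 44.0, 53.3 and 69.8 in turn. On a rank from 0 to 1, sub-clusters on the CD4 side had medians of 0.543, 0.717 and 0.780, and those on the CD8 side 0.586 to 0.960. Bins 9 and 10 thus lie past the middle of every CD4-side sub-cluster. Bin 10, at the CD8 end of the order, is not a matched late stage, and whether bin 9 is one was not tested. With cells on the opposite side kept, the differences were 2.80 in bin 6, 3.57 in bin 8 and 5.67 in bin 10, called in the same 5 bins.

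CD4 protein of CD4-fated mice was higher from bin 4 on than in bin 1. It averaged 569, 501 and 527 per 10000 in bins 1 to 3, with neither bin 2 nor bin 3 past the test against bin 1. The means were 707 in bin 4, 888 in bin 6 and 1123 in bin 10, and the rise against bin 1 passed the test in bins 4 to 10, at 0.36 to 0.97 on the log2 scale (15.3% to 41.4% of antibodies called). With all mice, this rise went with RNA levels that did not pass a test against bin 1 in the same bins. Without OT-II 1 the RNA passed in 7 bins in place of 2, bin 10 among them at 0.55. AND 1 reached 1738 per 10000 in bin 10, MHCI-/- mice 1115 and 1292, AND 2 986 and OT-II mice 832 and 776. OT-II mice were lowest, and AND 1 was above each of the others.

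In the CD8-fated mice CD4 protein fell in the later bins. It averaged 740, 638, 624, 811 and 878 per 10000 in bins 1 to 5 (6, 6, 5, 5 and 4 mice, F5 being absent from bin 5), and none of bins 2 to 5 passed against bin 1. F5 1 went from 774 per 10000 in bin 1 to 731, 702 and 499.6 in bins 2 to 4. The means were then 404 in bin 6, 163 in bin 7, 94.7 in bin 8, 58.3 in bin 9 and 42.4 in bin 10, which is close to the level of wild-type B-like cells. MHCII-/- 1 was still at 1185 per 10000 in bin 5 and at 520.4 in bin 6, where its RNA was at 10.4 CPM. MHCII-/- 2 had 1228 and 529.8 per 10000 in these bins, OT-I 1 583 and 336, and OT-I 2 517 and 257. F5 1, with no Cd4 UMI among 23 cells in bin 6, had 374.7 per 10000. The fall against bin 1 passed in bins 7 to 10, at -2.16, -2.97, -3.56 and -4.06 (48.6%, 47.7%, 40.5% and 49.5% of antibodies called), and the -0.85 of bin 6 did not (adjusted p = 0.081).

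Between lineages the protein overlapped in bins 1 to 5, with differences of -0.51 to -0.12 and no antibody called. In bin 6 the lowest CD4-fated mouse, OT-II 2, was at 589.5 per 10000 and the highest CD8-fated mouse at 529.8, a difference of 0.97 ± 0.34 that did not pass (adjusted p = 0.154, 4.5% of antibodies called, 0.901% higher). It passed with antibody counts scaled to library size (1.09, adjusted p = 0.00067). The difference was 2.41 ± 0.41 in bin 7 (adjusted p = 0.00147, 9.01% of antibodies called and 2.7% higher in CD4-fated mice), 3.34 ± 0.46 in bin 8, 3.98 ± 0.44 in bin 9 and 4.61 ± 0.42 in bin 10, with 7.21%, 10.8% and 9.01% of antibodies called (1.8%, 2.7% and 1.8% higher). In bin 10 the mice of the lineages lay at 776 or more and at 81.2 or less per 10000, and the ratio of the means was 26.5, against 2.20 in bin 6.

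**Figure D2:**
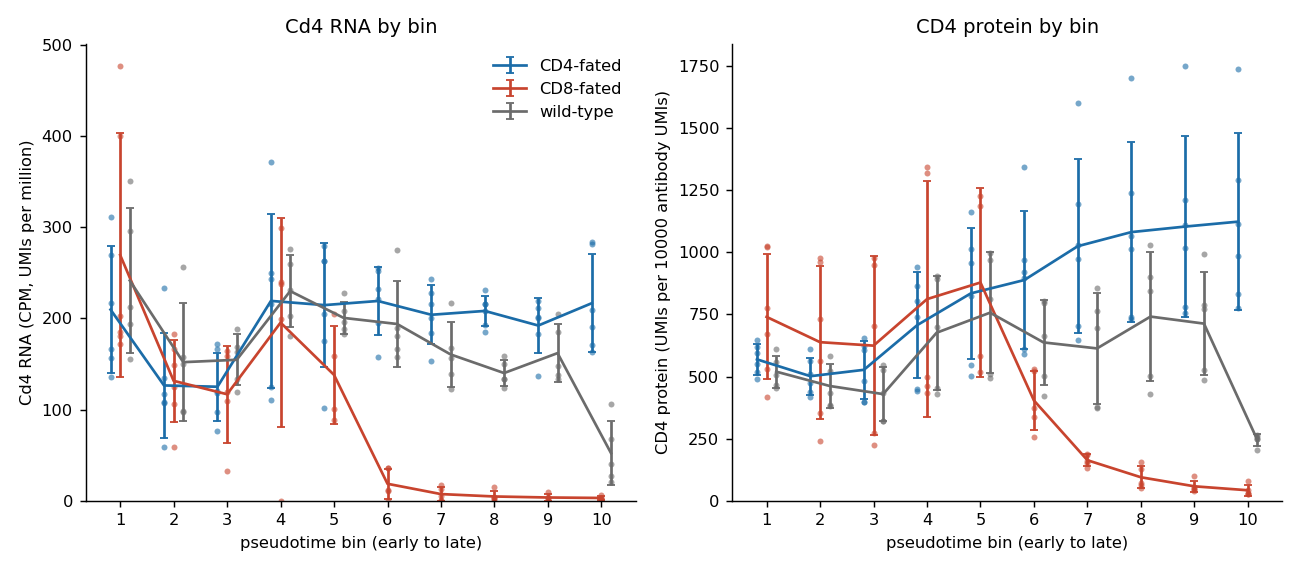
Cd4 RNA (CPM) and CD4 protein (per 10000 antibody UMIs) along the 10 pseudotime bins. Points are mice and lines the means with SD of CD4-fated, CD8-fated and wild-type mice; CD8-fated RNA drops to a mean of 18.7 CPM in bin 6, where CD8-fated protein is still at 404 per 10000.

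A fit over all bins tested the change itself. The change of RNA from bin 1 differed between the lineages by 1.00 ± 0.26 already in bin 5 (adjusted p = 0.0202, 1.56% of 9663 genes called), by 3.67 in bin 6 and by 6.03 in bin 10. For protein it differed from bin 6 on, by 1.52 ± 0.36 (adjusted p = 0.00225, 4.5% of antibodies called), and by 4.97 in bin 10. Over all bins together the adjusted p was 1.5e-50 for RNA, with 17.7% of genes called, and 3.0e-29 for protein, with 27.9% of antibodies called.

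Wild-type mice, which make both lineages, lay between the lineages in the later bins. Their RNA averaged 241.65 CPM in bin 1, 230.1 in bin 4 and 162 in bin 9, and 52.3 in bin 10, where the mice were at 20.3, 27.2, 40.7, 67.7 and 105.8 CPM. Protein went from 519.6 per 10000 in bin 1 to 756.9 in bin 5 and 244 in bin 10, with single mice between 205 and 263 in bin 10. Against bin 1 the bin 10 change was -2.04 for RNA (51.0% of genes called) and -1.11 for protein (58.6% of antibodies called). In bin 10 wild-type CD8a protein was 559 per 10000, against 741 in CD8-fated and 16.6 in CD4-fated mice, so this bin mixed both lineages. With cells ordered by a maturation score in place of pseudotime, the wild-type bin 10 change was -0.11 for RNA, no longer past the test, and 0.42 for protein (adjusted p = 0.000424), the opposite direction.

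The amount of protein per RNA was compared as log2 of the protein level minus log2 of the RNA level, each plus 1, in exact permutation tests over mice. In bin 6 CD4-fated mice averaged 1.98 and CD8-fated mice 5.101, a difference of -3.13 (exact two-sided p = 0.00433, the smallest that 6 against 5 mice allow, adjusted p = 0.0216). F5 1 had no Cd4 UMI in bins 6 to 9, so its ratio there depends on the added 1. Without F5 1 the bin 6 difference was -2.26. With all mice the differences in the later bins were smaller than in bin 6. It was -2.71 in bin 7 and -2.19 in bin 8 (exact permutation, adjusted p = 0.0289 and 0.0216), and -1.54 and -1.02 in bins 9 and 10 (adjusted p = 0.0758 and 0.113 in the same exact test). In bins 1 to 5 it lay between -1.39 and -0.02 and did not pass. In bin 8 the RNA of CD8-fated mice averaged 4.7 CPM and the protein of 3 of the 5 was at 53.4, 64.8 and 73.0 per 10000, near the 47.5 and 50.8 of B-like cells in the unsorted wild-type mice. The mean of the 5 was 94.7 and the highest 155. From this bin on the ratio thus sets protein near the B-like level, in part of the mice, over RNA near 0. The call in bin 7 was lost without any 1 of F5 1, AND 2, MHCI-/- 1, MHCI-/- 2, MHCII-/- 1, MHCII-/- 2, OT-II 1 or OT-II 2, at adjusted p from 0.0529 to 0.0635 in the same exact test. With 5 in place of 1 added to each level, the differences in bins 6 to 8 were -2.47, -1.74 and -1.12 and passed (exact permutation, adjusted p = 0.0289 in each), and those in bins 9 and 10 were -0.47 and -0.14 (adjusted p = 0.701 and 0.926). Bin 9 passed without OT-I 1 (-1.94, adjusted p = 0.0317) and bin 10 without OT-I 2 (-1.35, adjusted p = 0.0238), again by the exact test. Under the maturation score no bin passed, with -0.68 in bin 6, -1.54 in bin 7 and -1.62 in bin 8.

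For each CD8-fated mouse the bin position was found at which a readout last stood above the midpoint between its highest and its last level. RNA crossed at 4.79 and 4.85 in the MHCII-/- mice and protein at 5.77 and 5.76. OT-I 2 crossed at 4.61 for RNA and 5.94 for protein. In OT-I 1 and F5 1, whose RNA was highest in bin 1 and crossed at 1.92 and 2.06 during the early dip, protein crossed at 6.20 and 5.15. F5 1 had no value in bin 5, so its protein crossing is a straight line from bin 4 to bin 6. The protein crossed later in 5 of 5 mice, by 0.980, 0.919, 1.33, 4.28 and 3.09 bins in that order, 2.12 ± 1.498 bins on average (SD, n = 5), and the exact sign-flip test gave p = 0.0625, the smallest that 5 mice allow. The mean combines RNA crossings in the early dip with later ones. OT-I 2 also had its highest RNA in bin 1. The bin 4 RNA of OT-I 1 lay just under its midpoint between 400.2 and 2.60 CPM. A slightly higher value there would have moved its RNA crossing past bin 4. Bins are ranks and not hours, so this delay is no time.

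**Figure D3:**
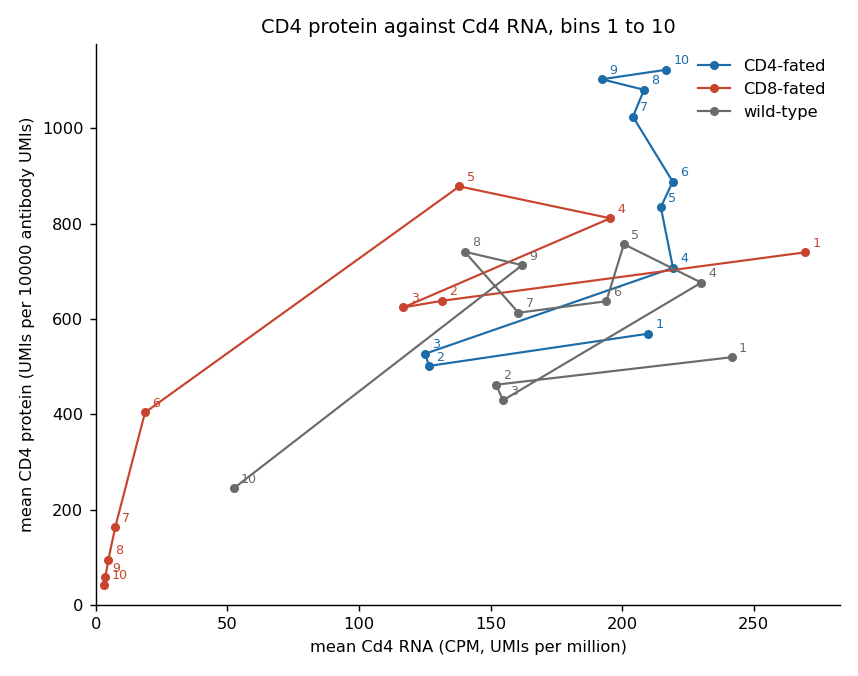
Mean CD4 protein (per 10000 antibody UMIs) against mean Cd4 RNA (CPM) in bins 1 to 10 for each lineage, joined in the order of the bins. The CD8-fated path goes from 138.1 CPM and 878 per 10000 in bin 5 (4 mice, without F5) to 18.7 CPM and 404 per 10000 in bin 6 (5 mice), and then down to 42.4 per 10000 at 7.4 CPM or less, whereas the CD4-fated path runs from 569 to 1123 per 10000 between 125.1 and 219.3 CPM.

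Cells were next placed by protein alone, with gates at 131 CD4 UMIs and 90 CD8a UMIs per 10000. Of trajectory cells, 61.2% ± 17.2 of CD4-fated mice (SD, n = 6) and 6.71% ± 8.06 of CD8-fated mice (n = 6) were CD4hi CD8lo, with 37.5% to 85.3% and 0% to 18% per mouse and no overlap (difference 54.4 percentage points, exact permutation p = 0.00216, the smallest possible, adjusted p = 0.00433). For CD4lo CD8hi the shares were 0.535% ± 0.373 and 36.3% ± 9.63, again without overlap (exact permutation, adjusted p = 0.00433). CD4hi CD8hi cells made up 38.0% ± 16.9 and 56.9% ± 15.5, a difference that did not pass (exact permutation p = 0.0693, adjusted p = 0.0924), but passed without OT-II 1 (-23.5 percentage points, exact permutation, adjusted p = 0.0404). The families differed in direction, with 13.7% and 25.4% in AND against 52.4% and 77.8% in F5 and 38.7% and 39.5% in MHCI-/- against 64.9% and 66.5% in MHCII-/-, but 61.1% and 49.7% in OT-II against 42.2% and 37.6% in OT-I. Wild-type mice had 50.4% ± 13.8 CD4hi CD8hi, 35.4% ± 10.2 CD4hi CD8lo and 13.99% ± 3.90 CD4lo CD8hi cells (SD, n = 5).

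**Figure D4:**
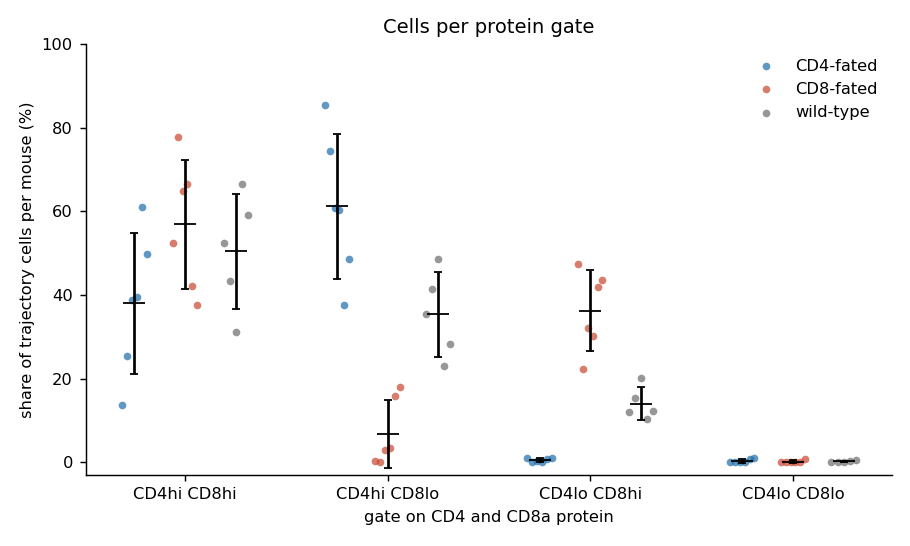
Share of trajectory cells per mouse (%) in the 4 gates on CD4 and CD8a protein, with the mean and SD of each lineage. CD4-fated and CD8-fated mice do not overlap in CD4hi CD8lo (61.2% against 6.71%) or CD4lo CD8hi (0.535% against 36.3%), and they do in CD4hi CD8hi.

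CD8-fated cells reached the CD4hi CD8lo gate in the middle of the order. With cells of opposite-side sub-clusters left out, their share there averaged 0.7% in bin 1, 10.2% in bin 4, 26.4% in bin 5 and 10.1% in bin 6, and 0.2% in bin 10. Only sub-clusters with a median rank of at least 0.5 could be left out. A sub-cluster of 1975 cells at a median rank of 0.357, with the largest CD4 marker difference (1.68), was kept. The filter thus acts mainly in the later part of the order, and its part in the fall after bin 5 was not tested. The bin 5 mean is over 4 mice without F5, from 11% in MHCII-/- 1 to 43.1% in OT-I 2, and those of bins 4 and 6 are over 5 mice with F5 1 at 0%. Meanwhile the CD4lo CD8hi share went from 2.2% in bin 5 to 16.5% in bin 6, 60.7% in bin 7 and 94.2% in bin 10. In CD4-fated mice the CD4hi CD8lo share rose without a return, from 12.1% in bin 4 to 56.2% in bin 5, 87.5% in bin 6 and 98.8% in bin 9. Over the whole order CD4hi CD8lo cells made up 15.8% and 18% of OT-I, 2.89% and 3.33% of MHCII-/-, and 0.182% and 0% of F5 cells. The last is 0 of 54 cells of F5 2. These shares include cells on the opposite side, and with those left out the highest CD8-fated share was 11.9% in place of 18% and the mean 4.62% in place of 6.71%. With the CD8a gate at 0.67 and 1.5 times its value the mean was 3.87% and 10.8%.

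The share of cells with a Cd4 UMI at 1500 UMIs was also taken within each gate. Cells on the opposite side are kept in these shares, so the CD4hi CD8lo cells of CD8-fated mice, above all of OT-I, include cells on the CD4 side. In CD4hi CD8lo cells CD4-fated mice had 27.3% ± 1.52 (SD, n = 6, unthinned 58.3%, median depth 4399) and CD8-fated mice 26.6% ± 4.39 (n = 4, unthinned 54.1%, median depth 4640.25). In CD4hi CD8hi cells the shares were 21.8% ± 4.14 and 15.3% ± 3.31 (unthinned 39.6% and 31.8%, median depths 3350 and 4267). In CD4lo CD8hi it was 0.507% ± 0.428 in CD8-fated mice (unthinned 1.53%) and 2.58% ± 2.96 in wild-type mice, where WT_unsorted 5 alone had 7.80%. These shares were not tested against each other.

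Cell classes gave a second comparison of lineages that does not use the order, with all cells of a class kept. In quiescent DP-like cells the difference, CD4-fated minus CD8-fated, was 0.05 ± 0.16 in RNA and -0.56 ± 0.33 in protein, and in signaled DP-like cells 0.19 ± 0.16 and -0.46 ± 0.32, none past the test (0.0422% and 0.0658% of genes and no antibody called). CD4 SP-like cells, which CD8-fated mice also held, did not differ detectably, with 0.03 in RNA and -0.09 in protein (0.167% of genes and 0.901% of antibodies called). Their cluster had a mean z score of 1.22 for CD4 SP markers and 1.64 for signaled DP markers. The class therefore need not hold CD4 single positive cells only. OT-I CD4 SP-like cells had 187 and 212 CPM of Cd4 RNA and MHCII-/- ones 221 and 190, within the 158 to 273 CPM of the CD4-fated mice. Of the 16 classes tested, RNA passed in 3 and protein in 1.

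In the cluster led by Akr1c18 and Hist1h2ag, MHCI-/- mice had 124 and 102 CPM, AND 1 109 and OT-II 1 53.5, against 5.8 and 3.6 in MHCII-/- and 1.4 and 24.1 in OT-I mice. The groups did not overlap, and RNA differed by 3.82 ± 0.55 (adjusted p = 0.0025, 1.47% of genes called) and protein by 3.80 ± 0.30 (adjusted p = 0.0001, 15.3% of antibodies called). In Treg-like cells, the RNA difference of 2.21 ± 0.51 (adjusted p = 0.0397, 0.969% of genes called) came with MHCI-/- mice at 164 and 188 CPM and MHCII-/- mice at 9.2 and 17.2. The OT family went the other way, with OT-I at 149 and 188 CPM and OT-II 1 at 23.4 CPM from 13 cells, so the groups overlapped. In interferon-like cells the difference was 1.30 ± 0.29 (adjusted p = 0.0188, 1.67% of genes called), with CD4-fated mice at 152 to 211 CPM and CD8-fated at 25.2 to 118 CPM, again without overlap. Without MHCII-/- 2 none of the 3 passed, at 3.33, 1.52 and 1.45. Without either MHCI-/- mouse the Treg-like call (2.03 and 1.89) and the interferon-like call (1.23 and 1.25) were lost, and the Treg-like call was also lost without MHCII-/- 1 (1.63) and without the family covariate (1.58). Protein in Treg-like cells (2.7% of antibodies called) passed without OT-II 1 alone (1.81, adjusted p = 0.00086).

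Genotypes handled alike were compared within classes, in 78 contrasts each of RNA and protein. RNA passed in 11. In cycling-like cells OT-I mice had 32.8 and 47.0 CPM, against 219 and 232 in the unsorted wild-type mice and 114 and 97.0 in OT-II. OT-I was lower than wild-type by 2.46 on the log2 scale (-2.46 ± 0.34, adjusted p = 0.0002, 8.46% of 9129 genes called), and OT-II exceeded OT-I by 1.39 ± 0.34 (adjusted p = 0.0244, 5.35% called). CD4 protein in these cells followed, with 127 and 167 per 10000 in OT-I, 463 and 407 in OT-II and 574 and 564 in wild-type, differences of -1.59 and 1.36 that both passed (29.7% and 19.8% of antibodies called). Fitted on the groups of each contrast alone, neither RNA difference passed (adjusted p = 0.0683 and 0.165). The class holds 4 clusters that the genotypes filled unequally. A cluster led by Cenpa and Cdc25b made up 40.7% and 25.6% of cycling-like cells in OT-I, where it had no Cd4 UMI (up to 5.46 and 17.8 CPM allowed by a count of 0), but 6.67% and 2.15% in OT-II and 0.816% and 1.77% in the unsorted wild-type mice. In the cluster led by Cdc20 and Ccnb2, OT-I had 23.5 and 53.2 CPM, OT-II 152.6 and 196 and wild-type 291 and 277. In the cluster led by Hist1h2ab and Hist1h2ae, OT-I had 111 and 87.2 CPM from 18 and 19 cells, beside 98.2 and 67.6 in OT-II and 195 and 199.6 in wild-type. The levels within single clusters were not tested.

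Negative selection-like cells, marked by genes of strong TCR signals, gave differences of opposite sign in the 2 families, in genotypes that also filled the 2 clusters of this class unequally. RNA was 106 and 139 CPM in MHCI-/- and 29.0 and 18.6 in MHCII-/- mice, a difference of 2.46 ± 0.32 (adjusted p = 0.0007, 1.02% of 8441 genes called). OT-II had 19.4 and 35.4 CPM, from 29 and 17 cells, and OT-I 163 and 184, a difference of -2.996 ± 0.49 (adjusted p = 0.0059, 1.66% called), which did not pass on these groups alone (adjusted p = 0.0606). The cluster led by Gadd45b and Nr4a3 held 83.8% and 81.0% of the class in MHCI-/-, 45.21% and 39.7% in MHCII-/-, 95.5% and 95.3% in OT-I and 34.5% and 41.2% in OT-II mice. Within it MHCI-/- had 133 and 188 CPM and MHCII-/- 55.7 and 23.1, whereas OT-I had 173 and 188 and OT-II 116 and 115, the last from 7 and 3 Cd4 UMIs in 10 and 7 cells. In the other cluster, led by Nrgn and Cldn10, MHCI-/- had 8.25 and 21.0 CPM and MHCII-/- 15.8 and 16.7. OT-I had 3 and 1 Cd4 UMIs there from 3 cells in each mouse (66.3 and 105.8 CPM), and OT-II had none from 19 and 10 cells (up to 9.99 and 51.1 CPM allowed). These levels within clusters were not tested. Over the whole class the unsorted and sorted wild-type mice lay between, from 49 to 130 CPM. Protein of OT-II was lower than that of OT-I by 2.25 on the log2 scale (-2.25, 37.8% of antibodies called, beside a median of -0.53 over all antibodies), with 238 and 157 against 572 and 530 per 10000, and MHCI-/- had 564.5 and 710.0 against 481 and 417 in MHCII-/- mice. In interferon-like cells MHCI-/- mice, at 207 and 207 CPM, were above MHCII-/- mice, at 25.2 and 93.1, by 1.87 ± 0.37 (adjusted p = 0.0079, 1.93% of genes called).

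CD4 protein on DP cells differed among genotypes with similar RNA, but the call depended on the scaling. In quiescent DP-like cells MHCII-/- mice had 1378 and 1463 per 10000, above the 718, 897 and 937 of the sorted wild-type mice, with RNA at 503.5 and 536 CPM against 473 to 526. In signaled DP-like cells they had 935.5 and 942 per 10000 against 440.0 to 545, with RNA at 96.0 and 101.5 CPM against 81.3 to 126. Protein differences were 0.75 ± 0.40 and 0.97 ± 0.35 with TMM scaling, which did not pass (0.901% of antibodies called in each). With library size they were 0.74 ± 0.17 and 0.90 ± 0.17, and both passed (adjusted p = 0.0127 and 0.0068). Library size moves the median difference of all antibodies in some contrasts by over 0.1, up to 1.12 for AND against F5 in interferon-like cells, so levels per 10000 between genotypes are relative to a panel that itself differs. In quiescent DP-like cells the other genotypes had 834 and 968 (MHCI-/-), 839.6 and 954 (F5), 498 and 750.2 (AND), 517 and 569 (OT-I), 615 and 642.5 (OT-II) and 567 and 615.5 (unsorted wild-type) per 10000.

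**Figure D5:**
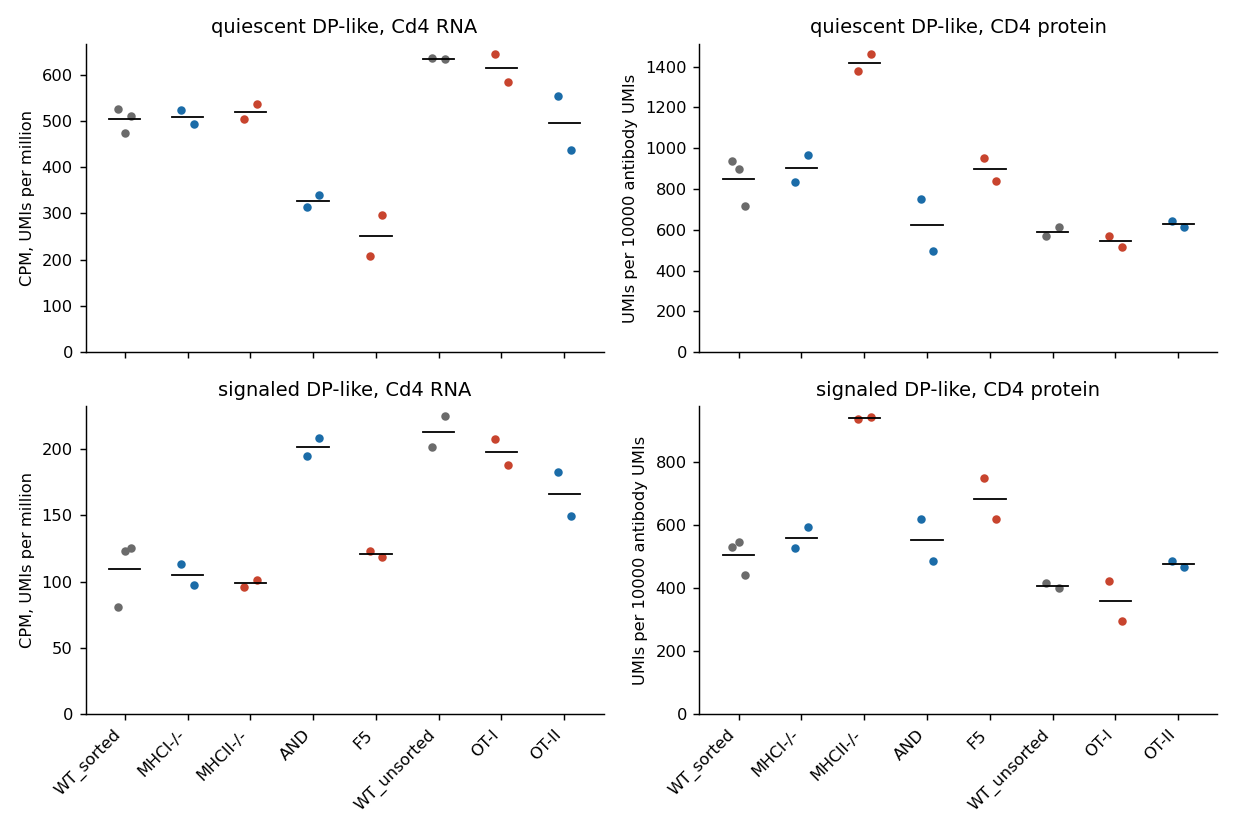
Cd4 RNA (CPM) and CD4 protein (per 10000 antibody UMIs) of quiescent DP-like and signaled DP-like cells by genotype. Points are mice and lines the mean; MHCII-/- mice have the highest protein in both classes (1378 and 1463, 935.5 and 942 per 10000), with RNA beside that of sorted wild-type mice.

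Regulators of Cd4 were taken as a fixed list of 19 genes for factors linked to its control, not all of them directly. The study, for example, places Gata3 upstream of Zbtb7b. None was called in bins 1 and 2, where 0.0804% and 0.0207% of genes were. In bin 3 Zbtb7b was higher in CD4-fated mice, at 28.3 against 3.12 CPM (2.79, 0.0824% of genes called), and in bin 4 at 89.1 against 17.1 CPM (2.80, 0.683% called). Runx3, whose product binds the silencer in CD8 T cells, was lower in CD4-fated mice in bin 4, at 45.6 against 188 CPM (-2.02 ± 0.26), as was Runx1 (-1.03). These calls fall in bins where Cd4 RNA itself did not differ by the test. In bin 6, where 3.32% of genes were called and 1.88% were higher, 3 of 19 were higher (Zbtb7b, Gata3 and Runx1) and Runx3 was lower, at 70.3 against 389.7 CPM. In bin 10, 4 of 18 tested were higher and 1 lower, beside 6.22% of genes called and 2.46% higher. Zbtb7b had 70 UMIs in the CD4-fated group and 2 in the CD8-fated, 69.5 against 0.120 CPM, Runx1 differed by 1.83, Gata3 by 1.32 and Bcl11b by 0.78, and Runx3 by -2.71. The median of the list in bin 10 was 0.03, beside -0.03 over all 5657 genes tested. Zbtb7b, Gata3 and Runx3 were also among the markers that assigned late sub-clusters to a side, so their late differences were in part chosen.

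Of 12 coreceptor partners, 11 passed the filter on low counts, and no member was called in bins 1 to 3 (0.0804%, 0.0207% and 0.0824% of genes). Cd8a was the first, lower in CD4-fated mice in bin 4 at 102.7 against 458 CPM (-1.93 ± 0.38, 0.683% of genes called), followed by Cd8b1 in bin 5 (-2.42 ± 0.43, 1.6% called), where Cd8a was at 59.6 against 386 CPM. In bin 6 Cd8a differed by -4.89, Cd8b1 by -3.46 and Cd247, which encodes the zeta chain of the TCR complex, by 0.69 (3.32% called). In bin 10 the 2 CD8 genes were called, at -5.65 and -4.27, and the other 9 were not (6.22% called). Lck, the kinase carried by both coreceptors, averaged 700.3 CPM in the CD4-fated group of bin 10 and 635 in the CD8-fated (0.13 ± 0.17). Lag3, the neighbour of Cd4, was under the filter, with 0 and 10 UMIs in the lineages in bin 10. The CD8a antibody first passed in bin 6, at -3.53 ± 0.47 (adjusted p = 0.00024), when the CD4 antibody did not.

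The genes whose levels followed those of Cd4 most closely over the 15 wild-type classes were Ctdsp2 (r = 0.890), Bcat2 (0.870), Pvr (0.861), Spop (0.857), Brdt (0.854), Ash1l (0.850), Nrd1 (0.842) and Atxn7l1 (0.826), among 5017 genes with at least 50 CPM in a class. Over the 20 lineage and bin means they were Fth1 (0.937), Ptms (0.923), Tecpr1 (0.920), Churc1 (0.902), Aldh2 (0.901), Ctdsp2 (0.885), Spop (0.884) and Gpsm3 (0.880) among 4183. Ctdsp2 and Spop were in both lists, and Ptms is the gene next to Lag3 on the same strand. Of the other 110 antibodies, LAG-3 (0.832), CD5 (0.8292), CD41 (0.735), CD49f (0.721) and SIRPa (0.71) were most like CD4 over lineages and bins. Over wild-type classes these were CD83 (0.640), LAG-3 (0.622), SiglecH (0.388), CD49f (0.314) and CD45.2 (0.308). On the scale of CD4 protein, the highest class level was 1.26 for CD83, 7.17 for SiglecH and 29.8 for LAG-3. It was 85.9 for CD49f and 131 for CD45.2. Over lineages and bins it was 16.8 for CD41, 24.0 for SIRPa and 32.7 for LAG-3, but 57.3 for CD49f and 2224 for CD5. Whether the low ones lie above background was not tested. The correlations are descriptions over points that share libraries, and neither LAG-3 nor CD5 passed the test between the lineages in bins 6 to 10.

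Markers of other cells were also counted in the trajectory. Over mice and bins, the sum of 6 B cell genes in CD4-fated mice was 36.4 to 522 CPM (median 127) and in CD8-fated ones 96.6 to 443 CPM (median 229), and that of 7 myeloid genes 24.8 to 202 (median 91.7) and 47.7 to 216 CPM (median 95.8). Over 5 plasmacytoid genes they were at 19.6 to 310 (median 89.5) and 28.1 to 232 CPM (median 78.6), with Klk1 at 0. Over 5 erythrocyte genes they were at 0 to 90.9 (median 4.31) and 0 to 1726 CPM (median 0.461). The CD8-fated medians of the B cell, myeloid and plasmacytoid sums lie above the Cd4 means of bins 6 to 10 in these mice. Cd4 UMIs were also found in myeloid-like cells, as given above, and whether these cells made the RNA was not tested. The part of such cells in the lineage differences was not tested either.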

How the data were processed

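The authors deposited counts, whole UMIs per gene or antibody and barcode for each of 19 lanes, without normalization. By the labels and the study's methods, reads from 10x 3′ libraries had been aligned to mm10 (GRCm38) with Cell Ranger 3.1.0, and the CD4 antibody was clone RM4-5 of a TotalSeq-A panel. Pooled matrices, which repeat the lanes, were not used. The members and the gene lists were chosen with earlier results of these data known.

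Barcodes with at least 200 genes, at most 15% mitochondrial UMIs, 1000 to 10000 antibody UMIs and at least 70 antibodies detected were kept (72054 of 85389), and 2816 (3.91%) were removed as doublets by their simulated neighbours, at 0.8% per 1000 barcodes. RNA was reduced to 30 principal components of 2000 variable genes, corrected by Harmony over 4 batches (experiments 1 and 2, and the lanes of the third experiment in 2 blocks) and clustered (leidenalg 0.10.2, resolution 1, 20 neighbors). Clusters were named from fixed markers. Clusters closest to signaled DP, CD4 SP, CD8 SP or mature SP with at least 5% wild-type cells were ordered by diffusion pseudotime (scanpy 1.11.5, 20 components, 30 neighbors). A sub-cluster with a median rank of at least 0.5 was put on a branch where mean z scores of CD4 SP and CD8 SP markers differed by 0.5, a threshold set after seeing the data. The models of the study, totalVI and Slingshot, were not run. Order and levels come from the same cells, so a change along the order is in part built in.

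UMIs were summed per mouse and bin or class (at least 10 cells) and fitted over all genes, or all 111 antibodies, by edgeR 4.0.16 (R 4.3.3, limma 3.58.1) with the quasi-likelihood test, TMM, filterByExpr and Benjamini-Hochberg adjustment, called at an adjusted p of 0.05. Alternatives were DESeq2 1.42.0, no filter, no family term, library size, a maturation score, and leaving out each mouse. Shares and protein per RNA were compared by exact two-sided permutation over mice (scipy 1.17.1). The mouse is the replicate. Printed folds are edgeR's log2 values and depend on its prior count where 1 side is near 0. On simulated counts for bin 7, 94.0% of genes changed 2-fold and 100% of those changed 4-fold were recovered, with 8 false calls among 5358 genes. For bin 2 it was 75.3% and 100%, with 9 false calls among 4806 genes. The simulation left out genes of low mean level and put in no difference between families, whereas the fit of bin 7 tested 8207 genes. It does not show recovery for genes of low level. Genes named as like Cd4 were the 8 with the highest Pearson r, and the 5 antibodies likewise. From the lists, members called in bin 10 were named, with Zbtb7b, Runx3, Lag3, Lck, Cd8a and Cd8b1 in any case. Members named in other bins were chosen after their values were seen.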

Additional observations from a re-analysis of the deposited data

Results flagged for a closer look

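Among 90 sets of 4 to 10 mice, 6 held a mouse far from the others by Dixon's test, which chance does in about 1 of 20 sets. WT_unsorted 5 was high in Cd4 RNA in 3 of them, with 275 CPM in bin 6 (next 189.7), 286 CPM in interferon-like cells (next 217) and 42.7 CPM in CD8 SP-like cells (next 7.78). OT-I 1 had 14.8 CPM in bin 8, where the next CD8-fated mouse had 3.69. For protein, F5 1 had 97.9 per 10000 in bin 9 (next 56.3), and WT_sorted 1 was low in bin 10 at 205 per 10000 (next 249).

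The change from bin 1 differed between the lineages by a test of the difference itself (edgeR, lineage-by-bin terms). For RNA it was 1.00 in bin 5, 3.67 in bin 6, 4.92 in bin 7, 5.25 in bin 8, 5.50 in bin 9 and 6.03 in bin 10 on the log2 scale. For protein it was 1.52, 2.89, 3.70, 4.50 and 4.97 in bins 6 to 10.

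In early bins the families of genotypes differed in opposite directions, with every mouse of the pair on its side, and this difference between families was not tested. In bin 1 Cd4 RNA of AND exceeded F5 by 52.2 CPM (244 against 191), whereas MHCI-/- minus MHCII-/- was -32.4 CPM (146 against 179) and OT-II minus OT-I was -199 CPM (239 against 439). In bin 2 CD4 protein of AND minus F5 was -129 per 10000 (518 against 647) and of MHCI-/- minus MHCII-/- -409.9 (559.8 against 969.8), but of OT-II minus OT-I 129 (426 against 297). In bin 3 the MHC pair differed by -394 per 10000 (568 against 963) and the OT pair by 151 (398 against 247).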

How the results depend on the processing

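The 5 bins called for RNA and the 4 bins called for protein kept their calls under each alternative that was run for them, except that DESeq2 was not applied to protein. Results that changed direction or count did so as follows, and the cause was not tested. With cells ordered by the maturation score, the RNA difference was 0.11, 0.62 and 0.81 in bins 2, 3 and 4, the protein difference 0.0070 and 0.31 in bins 4 and 5, RNA changes over bins passed in 1 bin of CD4-fated and 1 bin of wild-type mice, wild-type protein in bin 10 was 0.42 above bin 1 and protein per RNA passed in 0 bins. With clusters of under 5% wild-type cells kept, RNA in bin 2 was 0.021 and protein in bin 5 0.14. Without the family term, RNA was 0.021 in bin 4 and -0.00084 in quiescent DP-like cells, and with DESeq2 it was 0.10 in bin 4. With library size, protein in cycling-like cells was 0.25 and 13 of 78 genotype contrasts of protein passed in place of 5. With only the groups of each contrast, 15 passed for protein and 7 of 78 for RNA, in place of 11. Lowering the CD4 gate to 0.67 times its value made the CD4hi CD8hi difference -22.7 percentage points (exact permutation, adjusted p = 0.0375). The CD4lo CD8lo difference was -0.0851 with the CD8a gate at 1.5 times and -0.0887 with the opposite side left out. With doublets kept, wild-type CD8 SP-like protein was 56.9 per 10000.

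Leaving out each mouse in turn gave -0.44 to 0.036 for RNA in bin 2, -0.34 to 0.10 in bin 3 and -0.48 to 0.15 in bin 4, -0.059 to 0.12 in quiescent DP-like and -0.089 to 0.14 in CD4 SP-like cells. The number of classes called was 0 to 3 for RNA and 1 to 2 for protein. RNA changes over bins passed in 2 to 7 bins of CD4-fated and 1 to 6 bins of wild-type mice. For protein the ranges were -0.25 to 0.049 in bin 5, -0.087 to 0.39 in the cluster led by Cd226 and Plekho1, -0.30 to 0.30 in cycling-like and -0.24 to 0.067 in CD4 SP-like cells, and for the CD4hi CD8hi gate -23.5 to -13.99 percentage points. Over both kinds of alternative, 1033 values were set against the main ones. With a mouse left out 646 stayed the same, and 299 did under the others. For differences this meant direction and side of the threshold, and for counts and wild-type levels a move within a set limit. For wild-type levels the limit was the SD between mice, which leaving out 1 of 5 mice cannot pass. Direction changed in 21 and 14, a call was lost in 16 and 12 and gained in 6 and 6, and 6 and 7 moved past the limit.

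Same-numbered mice of a family correlated at 0.0609 (AND with F5), 0.309 (MHC) and 0.856 (OT) in their deviations from the group means. For AND and F5 the number also marks the experiment (1 or 2), and for OT-I and OT-II neighbouring lanes of the third experiment, whereas the 4 MHC mice were in 1 experiment. With a replicate block the RNA passed in 5 bins and 3 classes and the protein in 4 bins and 1 class, as without it. Depth limits the RNA of single cells and of small bins. F5 rests on 1 mouse after bin 2, since most F5 cells lay in clusters outside the order.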
